A study of Mus musculus with 7 samples.

Results

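The E2F and DP transcription factors were followed in bulk RNA-seq of mouse Group 3 medulloblastomas (G3 MBs). The 10 genes E2f1 to E2f8, Tfdp1 and Tfdp2 were taken by name from the 34592 genes of the count table, and all 10 passed the low-count filter. All 7 tumors grew in the cortices of CD-1 nu/nu mice, which lack T cells, from one tumorsphere line, # 19568. That line was made from granule neuron progenitors (GNPs) of postnatal Trp53-/-; Cdkn2c-/- cerebella that carried a retrovirus for Myc and GFP, so both groups share these alleles and the Myc transgene. For this line a figure legend of the study names RFP in place of GFP. The 4 tumors labelled WDR11OE came from spheres infected with a lentivirus for human WDR11 and copGFP under the EF1 promoter. The 3 control tumors carry the treatment label none, whereas the protocol and the methods of the study name an empty vector for controls. The study states that the lentivirus reached only part of the cells and that they were implanted unsorted, and the share of infected cells in the harvested tumors was not measured in these data. The comparison asks how enforced WDR11 expression changed these genes.

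E2F proteins bind DNA as dimers with a DP partner (E2f7 and E2f8 bind without one) and control genes of DNA replication and mitosis. E2f1, E2f2 and E2f3 act mainly as activators, E2f4 and E2f5 mainly as repressors bound to the RB family of pocket proteins, E2f6 as a repressor in a Polycomb-like complex, and E2f7 and E2f8 as repressors that the activators themselves induce. Cyclin D and its kinases phosphorylate RB and free the activators, which is the step that the deleted Cdkn2c, a kinase inhibitor, normally restrains in granule neuron progenitors.

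The targeted gene was examined first. The table holds a separate row for human WDR11, which was at 2.03, 2.19 and 3.13 CPM (counts scaled to each library's TMM-adjusted total) in controls 1 to 3 and at 4.38, 2.11, 3.05 and 0.624 CPM in the tumors labelled WDR11OE 1 to 4, from 73, 92 and 102 and 185, 169, 99 and 57 counts. Only WDR11OE-labelled tumor 1 lay above every control, tumors 2 and 3 lay within the control range, and tumor 4 lay below every control. The difference was not called, with a log2 fold change of 0.05 (SE 0.576, adjusted p = 0.961 by the Benjamini-Hochberg adjusted quasi-likelihood test of edgeR). Mouse Wdr11 was at 58.8 ± 0.464 CPM (SD, n = 3) in controls and at 65.6 ± 3.36 CPM (SD, n = 4) in the WDR11OE-labelled tumors, a log2 fold change of 0.16 that did not pass (adjusted p = 0.0910 by the Benjamini-Hochberg adjusted quasi-likelihood test of edgeR), although each WDR11OE-labelled tumor lay above each control (exact permutation p = 0.0571). How the counting divided reads between the similar human and mouse genes is not given in the sources used here. The human row did not separate the groups, so the tumors are called WDR11OE-labelled and each direction below is a direction between labels. The study reports raised WDR11 transcript by qRT-PCR in tumors of this line and WDR11 protein in spheres grown from such tumors. Whether the sequenced tumors were among those is not stated in its main text. The names of the control and WDR11OE libraries belong to different number series, and series and condition cannot be told apart. Counts per library ran from 32116095 to 87141305, with WDR11OE-labelled tumors 2 and 4 the deepest. The titles of WDR11OE-labelled tumors 1 and 2 share a number that those of tumors 3 and 4 do not, and what the number stands for is not given, so these 2 may not be independent and were also summed to 1 sample. The study calls the samples biological replicates, but neither the labels nor its methods tie each tumor to its own mouse, so p-values measure the spread between these samples, which may be technical.

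The markers of the cells that a tumor piece can hold were examined next. Of the 6 granule lineage markers, Atoh1 had no counts in any tumor (a count of 0 allows up to 0.0329 to 0.0924 CPM, for counting error only), Barhl1 was at or near 0, and the most abundant, Pax6, was at 20.9 ± 0.351 CPM (SD, n = 3) in controls and 21.4 ± 6.55 CPM (SD, n = 4) in WDR11OE-labelled tumors. The 7 skeletal muscle markers summed to 2.56, 2.05 and 1.75 CPM in controls 1 to 3 and to 79.5, 43.2, 112 and 36.3 CPM in WDR11OE-labelled tumors 1 to 4. All 7 were called higher, and Mb had no counts in the controls. Among these muscle markers Myh4 had the highest mean in WDR11OE-labelled tumors and Tnnt3 in controls. Neuron markers, led by Snap25, summed to 258, 79.0 and 40.2 CPM in controls and to 9.24, 21.0, 116 and 365 CPM in WDR11OE-labelled tumors, and none of the 6 tested was called by the Benjamini-Hochberg adjusted quasi-likelihood test of edgeR. The summed astrocyte markers were at 289.8, 386 and 275 CPM and 220.5, 215, 389 and 633 CPM, the oligodendrocyte markers, led by Mbp, at 244, 294 and 118 CPM and 169, 106, 117 and 292 CPM, the microglia and macrophage markers, led by Tmem119, at 112, 133 and 86.9 CPM and 63.7, 84.8, 95.3 and 125 CPM, and the endothelial markers at 79.1, 107 and 96.9 CPM and 75.1, 66.6, 67.6 and 68.2 CPM. Among astrocyte markers Gfap had the highest mean in controls (121 CPM) and Slc1a3 in WDR11OE-labelled tumors (133 CPM). Among endothelial markers Cdh5 had the highest mean in controls (35.7 CPM) and Kdr in WDR11OE-labelled tumors (22.4 CPM). S100b, an astrocyte and glial calcium-binding protein, was called higher and Cdh5, endothelial cadherin, lower, while the other tested markers of these 4 lists were not called. The part of these cells in the results was not tested, and in bulk RNA fewer cells of a type and less RNA per cell cannot be told apart. Myc, the driver of these tumors, named here outside the rule for named genes, was at 1109, 821 and 812 CPM in controls 1 to 3 and at 389.8, 431, 278 and 289 CPM in WDR11OE-labelled tumors 1 to 4, with no overlap between the groups and log2 fold change -1.40 (SE 0.197, adjusted p = 0.00227 by the Benjamini-Hochberg adjusted quasi-likelihood test of edgeR); reads of the transgene and of the native gene cannot be told apart in this row.

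Of 17389 genes tested, 2744 (15.8%) were lower and 3150 (18.1%) higher in WDR11OE-labelled tumors at an adjusted p under 0.05 in the Benjamini-Hochberg adjusted quasi-likelihood test of edgeR. The count of higher genes was 1560 without WDR11OE-labelled tumor 1, 1657 without tumor 2, 2045 without control 2 and 1629 with tumors 1 and 2 summed. Among the 10 E2F and DP genes 7 were called lower, against 15.8% of all genes, and 0 higher, against 18.1%. The 7 were E2f1, E2f3, E2f4, E2f6, E2f7, E2f8 and Tfdp2, and E2f2, E2f5 and Tfdp1 were not called. None of the 10 was higher at an unadjusted p under 0.05 by edgeR, and limma-voom and DESeq2 also called 0 higher. Only E2f4 also fell at least 2-fold, a rule that 600 genes (3.45%) met. The median log2 fold change of the 10 was -0.42, beside 0.08 over all genes tested. The control and WDR11OE-labelled ranges did not overlap for 7 members that were lower (against 19.1% of genes tested) and for 1 that was higher, E2f5 (against 23.5%). Without the tumor whose human WDR11 lay below every control, replicate 4, 7 members were again called lower, with tumors 1 and 2 summed 6 were (E2f1 was not, adjusted p = 0.0769 by the Benjamini-Hochberg adjusted quasi-likelihood test of edgeR), and without both of the deepest libraries, replicates 2 and 4, a fit of fewer samples chosen after seeing the data, 4 were (E2f4, E2f6, E2f7 and E2f8), the others keeping log2 fold changes near those of all tumors (E2f1 -0.33, E2f3 -0.35 and Tfdp2 -0.47). Log2 fold change followed base composition, with a Spearman rho of -0.39 against exon GC content across 13328 genes that code for protein (a description across genes, not across replicates). With the GC trend removed 2313 of all genes tested were called higher and 2493 lower. Without WDR11OE-labelled tumors 2 and 4 the calls were 1483 higher and 1721 lower. List counts in these 2 settings are to be read beside these numbers.

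**Figure D1:**
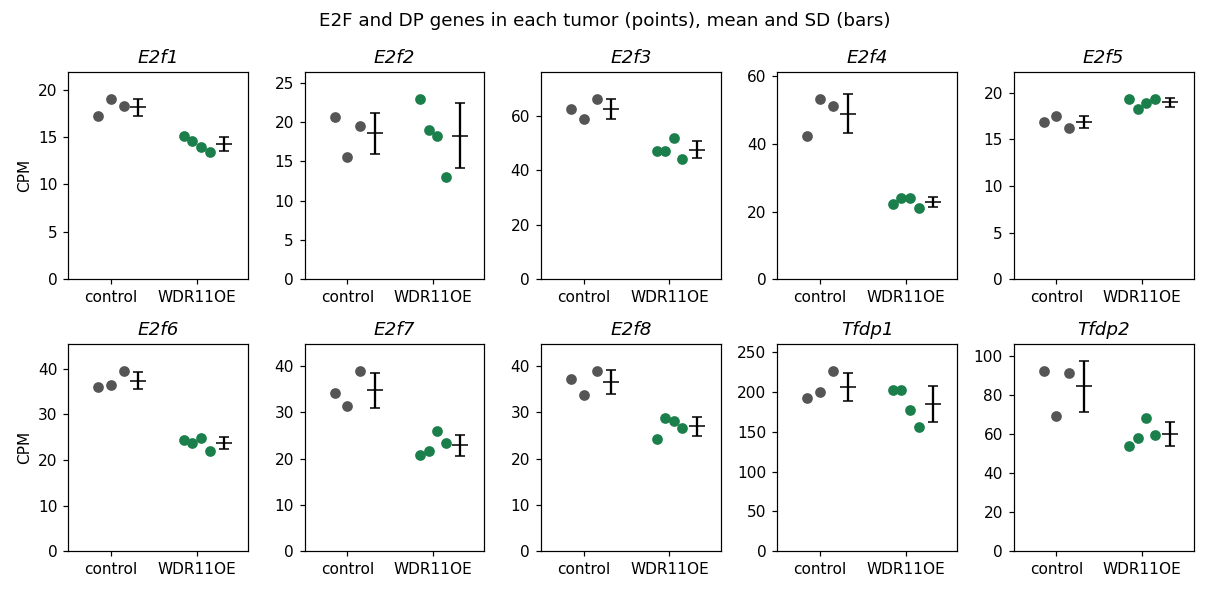
Level of each gene in CPM in the 3 control tumors (grey points) and 4 WDR11OE-labelled tumors (green points), with the mean and SD of each group as black bars. The groups do not overlap for the 7 genes called lower or for E2f5, which lies higher, and they overlap for E2f2 and Tfdp1.

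The activators differed among themselves. E2f3 (ENSMUSG00000016477, chr13:29998444-30077537 on the - strand of NCBIM37) encodes an activator linked to proliferation. E2f3 was at 62.6, 58.6 and 66.1 CPM in controls 1 to 3 and at 47.1, 46.9, 51.6 and 44.0 CPM in the WDR11OE-labelled tumors 1 to 4. Every WDR11OE-labelled tumor lay below every control, at 44.0 to 51.6 against 58.6 to 66.1 CPM. The log2 fold change -0.40 (SE 0.0764, adjusted p = 0.00717 by the Benjamini-Hochberg adjusted quasi-likelihood test of edgeR) was accompanied by an exact permutation p of 0.0286, the smallest that the 35 ways of splitting 7 tumors into 4 and 3 can give, and each of the 7 called members had this exact p with TMM scaling. E2f1 was at 17.2, 19.0 and 18.2 CPM in controls 1 to 3 and at 15.1, 14.6, 14.0 and 13.4 CPM in the WDR11OE-labelled tumors 1 to 4. E2f1, an activator that can also induce cell death, was lower in all 4 WDR11OE-labelled tumors than in any control, with log2 fold change -0.35 (SE 0.0956, adjusted p = 0.0277 by the Benjamini-Hochberg adjusted quasi-likelihood test of edgeR). That call was the least stable of the 7, kept under 8 of 17 alternatives. With the trend of fold change on exon GC content removed the log2 fold change was -0.03 (adjusted p = 0.857 by the Benjamini-Hochberg adjusted quasi-likelihood test of edgeR), and leaving out single tumors gave adjusted p from 0.0393 to 0.0941 by the same edgeR test, above 0.05 without control 2, control 3 and WDR11OE-labelled tumors 1, 2 and 3. E2f1 exons are 58.5% G and C, and those of E2f3 49.3%. E2f2 was at 20.6, 15.5 and 19.5 CPM in controls 1 to 3 and at 22.9, 19.0, 18.1 and 13.0 CPM in the WDR11OE-labelled tumors 1 to 4. The E2f2 groups overlapped, with tumors 1 and 4 of the WDR11OE-labelled group as its highest and lowest, and the log2 fold change -0.02 (SE 0.200, adjusted p = 0.944 by the Benjamini-Hochberg adjusted quasi-likelihood test of edgeR) did not pass; its sign was positive under upper quartile scaling, after GC correction and without control 1, control 3, WDR11OE-labelled tumor 4 or both tumors 2 and 4.

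The repressors held the largest fall among the members. E2f4 (ENSMUSG00000014859, chr8:107821563-107829269 on the + strand of NCBIM37) encodes the repressor that binds p107 and p130 in quiescent cells and, in the DREAM complex, silences cell cycle genes. E2f4 was at 42.4, 53.4 and 51.2 CPM in controls 1 to 3 and at 22.3, 24.1, 24.1 and 21.0 CPM in the WDR11OE-labelled tumors 1 to 4. The WDR11OE-labelled tumors lay between 21.0 and 24.1 CPM and the controls between 42.4 and 53.4, with no overlap. E2f4 fell 2.14-fold, with log2 fold change -1.10 (SE 0.101, adjusted p = 0.000989 by the Benjamini-Hochberg adjusted quasi-likelihood test of edgeR), and 4.08% of genes tested had a lower log2 fold change. Its log2 fold change was -0.87 with the GC trend removed and -1.06 without WDR11OE-labelled tumor 4. E2f6 was at 36.0, 36.5 and 39.4 CPM in controls 1 to 3 and at 24.5, 23.7, 24.8 and 22.0 CPM in the WDR11OE-labelled tumors 1 to 4. E2f6, which represses germline genes in a complex with Mga and Pcgf6, again lay lower in each WDR11OE-labelled tumor than in each control, with log2 fold change -0.65 (SE 0.0761, adjusted p = 0.00132 by the Benjamini-Hochberg adjusted quasi-likelihood test of edgeR). E2f5 was at 16.9, 17.5 and 16.2 CPM in controls 1 to 3 and at 19.3, 18.3, 18.9 and 19.3 CPM in the WDR11OE-labelled tumors 1 to 4. E2f5, the partner of p130 in repression, was instead higher in every WDR11OE-labelled tumor than in any control by a small margin, at an exact permutation p of 0.0286, but its log2 fold change 0.17 (SE 0.0839, adjusted p = 0.163 by the Benjamini-Hochberg adjusted quasi-likelihood test of edgeR) did not pass across all genes. With scaling to library size alone the exact permutation p of E2f5 was 0.0857. With GC and length trends removed its sign turned negative (-0.12).

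Both atypical E2Fs, which bind DNA through a pair of domains of their own and counter the activators in S phase, were lower. E2f7 was at 34.1, 31.4 and 38.9 CPM in controls 1 to 3 and at 20.9, 21.6, 25.9 and 23.4 CPM in the WDR11OE-labelled tumors 1 to 4. E2f8 was at 37.1, 33.7 and 38.9 CPM in controls 1 to 3 and at 24.2, 28.8, 28.2 and 26.7 CPM in the WDR11OE-labelled tumors 1 to 4. For each gene the lowest control lay above the highest WDR11OE-labelled tumor. The fall of E2f7 had log2 fold change -0.60 (SE 0.111, adjusted p = 0.00598 by the Benjamini-Hochberg adjusted quasi-likelihood test of edgeR). E2f8 gave log2 fold change -0.44 (SE 0.0898, adjusted p = 0.00911 by the Benjamini-Hochberg adjusted quasi-likelihood test of edgeR). E2f8 shares 274 bases of exon (5.03% of its exon length) with Gm2788 on the other strand, and whether counting used strand is not given in the sources used here. No other member shared exon bases with a gene of the annotation.

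The DP partners, which dimerise with E2f1 to E2f6, split. Tfdp1 was at 192, 199.5 and 226 CPM in controls 1 to 3 and at 202, 202, 177 and 156 CPM in the WDR11OE-labelled tumors 1 to 4. The Tfdp1 groups overlapped, WDR11OE-labelled tumor 4 being the lowest and control 3 the highest, and log2 fold change -0.16 (SE 0.113, adjusted p = 0.328 by the Benjamini-Hochberg adjusted quasi-likelihood test of edgeR) did not pass. Tfdp2 was at 92.4, 69.7 and 91.7 CPM in controls 1 to 3 and at 54.3, 58.0, 68.6 and 59.5 CPM in the WDR11OE-labelled tumors 1 to 4. Tfdp2 was lower in all 4 WDR11OE-labelled tumors than in any control, but by a narrow gap, since control 2 stood near WDR11OE-labelled tumor 3. It had log2 fold change -0.49 (SE 0.124, adjusted p = 0.0201 by the Benjamini-Hochberg adjusted quasi-likelihood test of edgeR), and leaving out single tumors gave adjusted p from 0.0110 to 0.0683 by the same edgeR test, above 0.05 without control 1, control 3 or WDR11OE-labelled tumor 1. With scaling to library size alone its exact permutation p was 0.0571.

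**Figure D2:**
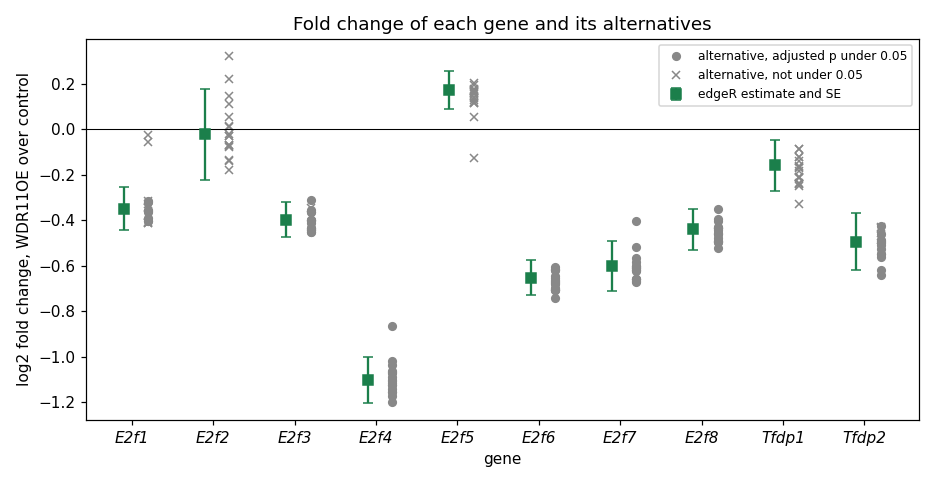
Log2 fold change (WDR11OE-labelled over control) of each gene with its SE (green squares) and its value under 17 alternative settings (grey; circles where the adjusted p was under 0.05, crosses where it was not). E2f4, E2f6, E2f7 and E2f8 stay negative and called throughout, and E2f1 comes near 0 under both GC corrections.

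Between genes, levels were compared as CPM per kb of exon. Tfdp1 was far the most abundant, at 80.9 ± 6.95 CPM per kb (SD, n = 3) in controls and 72.5 ± 8.75 (SD, n = 4) in WDR11OE-labelled tumors. In controls E2f4 (24.6 CPM per kb), E2f6 (15.2), E2f3 (13.0), Tfdp2 (11.3), E2f5 (9.64), E2f8 (6.72), E2f1 (5.76), E2f7 (3.86) and E2f2 (3.80) followed. Among the control neighbours in that order, the tumor ranges overlapped for E2f3 and Tfdp2, for Tfdp2 and E2f5, and for E2f7 and E2f2, and did not overlap for the other pairs. In WDR11OE-labelled tumors E2f4 (11.5 CPM per kb), E2f5 (10.9), E2f3 (9.89) and E2f6 (9.68) stood in this order, each range overlapping that of the next, while the ranges of E2f4 and E2f5 both lay wholly above that of E2f6. E2f5 moved from place 6 to place 3 of the 10. With the longest transcript in place of the exon union E2f5 went from place 7 to place 3, and in controls E2f7 stood at 6.36, E2f8 at 9.91 and E2f2 at 3.91 CPM per kb, so that the overlap of E2f7 and E2f2 was gone and rests on the length used. The control range of E2f8 then overlapped that of E2f5, and the range of E2f7 that of E2f1, so these separations rest on the length used as well.

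**Figure D3:**
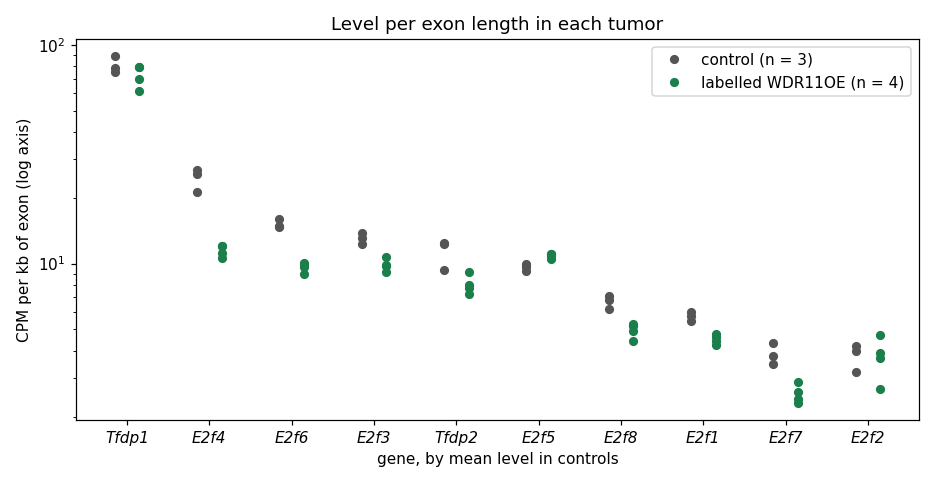
CPM per kb of exon (log axis) of each gene in the 3 control tumors (grey) and 4 WDR11OE-labelled tumors (green), ordered by the mean of the controls. E2f4 stands second after Tfdp1 in controls, at 24.6 CPM per kb, and lies close to E2f5, E2f3 and E2f6 in WDR11OE-labelled tumors.

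The makeup of the E2F pool was described as each gene's share of the CPM per kb summed over the 8 E2F genes. E2f4 held 26.95, 32.4 and 29.9% of that sum in controls 1 to 3 and 19.2, 20.8, 20.1 and 19.5% in WDR11OE-labelled tumors 1 to 4. E2f5 held 12.2, 12.1 and 10.8% in controls and 18.96, 17.97, 18.1 and 20.4% in WDR11OE-labelled tumors. The share of E2f4 was thus lower, and that of E2f5 higher, in every WDR11OE-labelled tumor than in any control. Because shares are parts of 1 sum, falls of other members raise the share of any gene that fell less. The higher share of E2f5, whose own level was not called, is therefore no separate result. The activators together held 27.4 ± 1.44% (SD, n = 3) and 31.4 ± 1.39% (SD, n = 4), and the repressors E2f4 to E2f6 59.8 ± 2.35% and 55.5 ± 0.624%. The sum itself was 82.6 ± 3.59 CPM per kb in controls and 57.7 ± 2.47 in WDR11OE-labelled tumors, with no test made of these sums. With the longest transcript as the length the activators held 26.5 and 30.4%, the repressors 55.3 and 51.2%, and the shares of E2f4 and E2f5 again did not overlap between the groups. Within groups E2f5 varied least, with a coefficient of variation of 3.76% in controls and 2.57% in WDR11OE-labelled tumors, and E2f2 varied most in the WDR11OE-labelled tumors, at 22.4%.

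Among the other genes tested, those with the pattern most like each called member over the 7 tumors were taken by the root mean square difference of log2 CPM centred on the gene's mean. For E2f1 these were Mpv17 (0.0230), Csnk1e (0.0285) and Smad1 (0.0337). The nearest to E2f3 were Numa1 (0.0254), Rasl11b (0.0365) and Fem1a (0.0376). For E2f4 these were Tspan11 (0.0523), Mllt1 (0.0532) and Nacc1 (0.0551). The nearest to E2f6 were Tnfaip1 (0.0302), Ccdc71 (0.0376) and Lrdd (0.0427). For E2f7 these were Arnt (0.0425), Sin3a (0.0534) and Pnpla2 (0.0569). The nearest to E2f8 were Zdhhc3 (0.0461), 1810026J23Rik (0.0464) and Qrich1 (0.0560). For Tfdp2 these were Gm17251 (0.0536), Hnrnpd (0.0646) and 6230409E13Rik (0.0674). No other E2F or DP gene was among these nearest genes.

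Upstream of E2F, none of the 3 pocket protein genes, which encode the RB family that holds E2Fs inactive, was called in either direction by the Benjamini-Hochberg adjusted quasi-likelihood test of edgeR, by limma-voom or by DESeq2, and none had an unadjusted p under 0.05 in edgeR; with the GC trend removed 2 were called lower. Of the 9 cyclins and kinases that act on RB, 1 was called lower and 2 higher by edgeR's quasi-likelihood test, where 15.8% of all genes tested were lower and 18.1% higher, with a median log2 fold change of -0.24 beside 0.08 over all genes tested. The median was -0.12 with the GC trend removed. Ccnd2 was at 421, 286 and 319 CPM in controls 1 to 3 and at 123, 112, 162 and 119 CPM in the WDR11OE-labelled tumors 1 to 4. Ccnd2, a D cyclin of cycling granule neuron progenitors, was lower in every WDR11OE-labelled tumor than in any control, with log2 fold change -1.41 (SE 0.173, adjusted p = 0.00151 by the Benjamini-Hochberg adjusted quasi-likelihood test of edgeR). The other D cyclins, Ccnd1 (-0.46) and Ccnd3 (-0.48), were not called by that test, while DESeq2 called Ccnd1 lower (-0.51). Ccne2 was at 34.9, 34.3 and 35.1 CPM in controls 1 to 3 and at 63.2, 70.5, 60.5 and 54.6 CPM in the WDR11OE-labelled tumors 1 to 4. Ccne2, a cyclin of Cdk2, was higher in each of the 4, with log2 fold change 0.84 (SE 0.0929, adjusted p = 0.00119 by the Benjamini-Hochberg adjusted quasi-likelihood test of edgeR), and Cdk4, the kinase of the D cyclins and the most abundant of the list, was also called higher (0.45). With the GC trend removed Ccne2 was at 0.34 and not called, and Cdk4 was called under 7 of 17 alternatives, losing the call among others by DESeq2, with WDR11OE-labelled tumors 1 and 2 summed and without tumors 2 and 4 (0.48). Of 7 CDK inhibitors, beside the same 15.8% lower and 18.1% higher over all genes, 2 were called lower, Cdkn2b (-0.61) and Cdkn1a (-0.69), and 0 higher at either an adjusted or an unadjusted p under 0.05 in edgeR, with 0 also by limma-voom and DESeq2 and 1 (Cdkn2c) with the GC trend removed. Both lower calls were lost with the GC trend removed (-0.39 and -0.52), where Cdkn1b alone was called lower, and without WDR11OE-labelled tumors 2 and 4, where the log2 fold changes stayed at -0.68 and -0.64; Cdkn2b was called under 10 of 17 and Cdkn1a under 4 of 17 alternatives. Transcripts of the deleted Cdkn2c were counted at 16.2 ± 1.02 CPM (SD, n = 3) in controls and 21.6 ± 5.47 CPM (SD, n = 4) in WDR11OE-labelled tumors, and what the deleted allele still transcribes is not given in the sources used here. Of the 3 genes of E2F turnover, Fzr1, an activator of the anaphase-promoting complex, was called lower (-0.81) and Skp2 and Ccnf were not called, where 15.8% of all genes were lower.

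Downstream, of the 36 E2F target genes of G1 and S phase 15 were called higher and 2 lower by edgeR's quasi-likelihood test, where 18.1% of all genes tested were higher and 15.8% lower, with a median log2 fold change of 0.14 beside 0.08 over all genes tested. Pola1 was at 115, 114 and 135 CPM in controls 1 to 3 and at 229, 229, 214 and 196 CPM in the WDR11OE-labelled tumors 1 to 4. Pola1, the catalytic subunit of DNA polymerase alpha, was higher in each WDR11OE-labelled tumor than in any control, with log2 fold change 0.84 (SE 0.0934, adjusted p = 0.00120 by the Benjamini-Hochberg adjusted quasi-likelihood test of edgeR). Prim1, its primase subunit, rose by 0.80 on the log2 scale. Cdt1 was at 70.3, 72.1 and 79.6 CPM in controls 1 to 3 and at 42.7, 48.4, 40.5 and 30.3 CPM in the WDR11OE-labelled tumors 1 to 4. Cdt1, which licenses replication origins, was instead lower in every WDR11OE-labelled tumor, with log2 fold change -0.87 (SE 0.150, adjusted p = 0.00467 by the Benjamini-Hochberg adjusted quasi-likelihood test of edgeR), and Pold1, a subunit of DNA polymerase delta, was also called lower (-0.51). The most abundant of the list, the helicase subunit Mcm6, was at 354 ± 42.4 CPM (SD, n = 3) and 368 ± 56.4 CPM (SD, n = 4) and was not called. With the GC trend removed, an alternative chosen for the lists after seeing the data, 11 were called higher and 4 lower, and the call of Pold1 was lost (-0.12). Over all genes that setting called 2313 higher and 2493 lower. Without WDR11OE-labelled tumors 2 and 4, 8 were called higher and 1 lower, while the median log2 fold change was 0.21. Pold1 lost its call there too, with its log2 fold change at -0.46.

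Of 24 genes of G2 and mitosis, 12 were called higher and 2 lower by edgeR's quasi-likelihood test, where 18.1% of all genes tested were higher and 15.8% lower, with a median log2 fold change of 0.32 (0.19 with the GC trend removed) beside 0.08 over all genes tested. Top2a was at 563, 571 and 706 CPM in controls 1 to 3 and at 1059.6, 1079, 980.2 and 871 CPM in the WDR11OE-labelled tumors 1 to 4. Top2a, the topoisomerase that separates chromosomes and the most abundant of the list in WDR11OE-labelled tumors, was higher in each of them, with log2 fold change 0.70 (SE 0.128, adjusted p = 0.00593 by the Benjamini-Hochberg adjusted quasi-likelihood test of edgeR). In controls Mki67, named outside the rule for named genes, was the most abundant, at 818 ± 116 CPM (SD, n = 3). Mki67 was at 666 ± 40.6 CPM (SD, n = 4) in WDR11OE-labelled tumors and was not called (-0.30). Ndc80, a kinetochore protein, rose by 0.82 and Hmmr, a spindle protein, by 0.68 on the log2 scale, whereas Plk1, a mitotic kinase (-0.72), and Ube2c, a ubiquitin-conjugating enzyme of mitotic exit (-0.65), were called lower. With the GC trend removed the calls were 3 higher and 1 lower, those of Top2a (0.39), Hmmr (0.36), Plk1 (-0.50) and Ube2c (-0.52) being lost. In that setting 2313 of 17389 genes were called higher, so the 3 of 24 lay near the share of all genes. Without WDR11OE-labelled tumors 2 and 4 the calls were 9 higher and 0 lower, with Plk1 at -0.66 and Ube2c at -0.62. Of the 7 genes of the MuvB core and its partners, which pass from E2f4 repression to mitotic activation, 3 were called lower and 2 higher. Foxm1 was at 59.5, 63.5 and 70.0 CPM in controls 1 to 3 and at 31.9, 34.7, 37.0 and 28.8 CPM in the WDR11OE-labelled tumors 1 to 4. Foxm1, the forkhead factor that MuvB recruits for mitotic genes, was lower in each WDR11OE-labelled tumor, with log2 fold change -0.96 (SE 0.102, adjusted p = 0.00112 by the Benjamini-Hochberg adjusted quasi-likelihood test of edgeR). Mybl2 (-0.53) and Lin37 (-0.54) were also called lower, and the MuvB subunits Lin9 (0.30) and Lin52 (0.56) higher. The MuvB calls were 1 lower (Foxm1) and 0 higher both with the GC trend removed and without these 2 tumors. With the GC trend removed Lin37 was at -0.29, Mybl2 at -0.32, Lin52 at 0.34 and Lin9 turned to -0.08, whereas without WDR11OE-labelled tumors 2 and 4, with fewer samples, they stayed at -0.55, -0.45, 0.48 and 0.34.

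For E2f6, 10 genes of its complex gave 1 call lower and 2 higher by edgeR's quasi-likelihood test, where 15.8% of all genes tested were lower and 18.1% higher: Max, the partner of Mga (-0.40), against Mga, the largest subunit and the most abundant of the list (0.37), and Cbx3 (0.40). With the GC trend removed the calls were 3 lower (Max, Rnf2 and Rybp) and 0 higher, with Mga at 0.06 and Cbx3 at 0.26. Without WDR11OE-labelled tumors 2 and 4 none was called, while the log2 fold changes stayed at -0.34 (Max), 0.37 (Mga) and 0.42 (Cbx3). Of the 5 germline genes that E2f6 is known to repress, 4 (Smc1b, Slc25a31, Tuba3a and Tuba3b) were too low to test, and Stag3, a meiotic cohesin subunit, was at 7.16 ± 3.19 CPM (SD, n = 3) in controls and 6.07 ± 1.76 CPM (SD, n = 4) in WDR11OE-labelled tumors and was not called. Of 7 apoptotic E2F targets, Apaf1, a core of the apoptosome, was called higher (0.46), while Bcl2l11 (-0.49) and Bbc3 (-0.62), which encode the pro-apoptotic proteins Bim and Puma, were called lower. The median log2 fold changes were -0.08 for the complex and 0.46 for the apoptotic targets, the second being 0.24 with the GC trend removed. Without WDR11OE-labelled tumors 2 and 4 Trp73 was too low to test, and the median of the other 6 apoptotic targets was 0.18, beside 0.18 for the same 6 with all tumors. With the GC trend removed Apaf1 (0.28) and Bbc3 (-0.09) were not called, and without tumors 2 and 4 Bbc3 (-0.60) was not.

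Several members are known E2F targets themselves, so their promoters were searched for the E2F letters TTTCCCGC, TTTCGCGC, TTTGCCGC and TTTGGCGC on both strands. RefSeq promoters of GRCm38.p6, 250 bases before to 50 after the transcript start, were given for 8 of the 10 members (12 promoters), E2f4 and E2f5 having no entry. Of the 32851 promoters of all genes, 744 (2.26%) hold at least one of these words, and 5 of the 12 member promoters, of E2f2, E2f3, E2f7 and Tfdp1, do. The 2 promoters of Tfdp1 overlap by 247 bases and share 1 site, so these 5 hold 4 distinct sites. E2f3 and E2f7 were called lower and E2f2 and Tfdp1 were not. The only sequence given for E2f1 translates in 1 frame to a stretch of the E2F1 protein, so it lies inside the gene and the promoter upstream of E2f1 was not searched. Neither of the next motifs is contained in an E2F word. The CCAAT box, CCAAT on either strand, is in 37.4% of all promoters and in 5 of the 12 member promoters, and the CHR letters TTTGAA are in 17.9% and in 3 of the 12. These counts include a second E2f2 entry, chr4:136180532-136180831, with 3 CCAAT matches and 1 CHR match. It lies downstream of the other E2f2 entry, and its first bases read in 1 frame as a short stretch of the E2F2 protein. It therefore also lies inside the gene, and its matches are not in the promoter upstream of E2f2. This entry and the E2f1 sequence, which holds neither motif, remain among the 12, so not all of the 12 are upstream promoters. One promoter of each of the 4 members with E2F letters is shown 5′ to 3′ on the gene's strand, with only the E2F matches in capitals.
E2f3, chr13:29986014-29986313 (- strand): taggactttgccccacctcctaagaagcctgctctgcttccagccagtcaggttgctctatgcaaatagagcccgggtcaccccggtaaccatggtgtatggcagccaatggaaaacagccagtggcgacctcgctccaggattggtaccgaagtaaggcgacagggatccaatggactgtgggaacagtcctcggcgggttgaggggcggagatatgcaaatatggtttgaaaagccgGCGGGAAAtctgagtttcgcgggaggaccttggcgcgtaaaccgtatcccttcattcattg
E2f7, chr10:110745189-110745488 (+ strand): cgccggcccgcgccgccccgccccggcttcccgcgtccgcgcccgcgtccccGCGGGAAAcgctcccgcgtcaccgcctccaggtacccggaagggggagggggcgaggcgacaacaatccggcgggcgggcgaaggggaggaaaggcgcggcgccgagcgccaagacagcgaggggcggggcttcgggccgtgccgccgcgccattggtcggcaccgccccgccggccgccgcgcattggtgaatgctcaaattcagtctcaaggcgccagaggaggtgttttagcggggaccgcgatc
E2f2, chr4:136172024-136172323 (+ strand): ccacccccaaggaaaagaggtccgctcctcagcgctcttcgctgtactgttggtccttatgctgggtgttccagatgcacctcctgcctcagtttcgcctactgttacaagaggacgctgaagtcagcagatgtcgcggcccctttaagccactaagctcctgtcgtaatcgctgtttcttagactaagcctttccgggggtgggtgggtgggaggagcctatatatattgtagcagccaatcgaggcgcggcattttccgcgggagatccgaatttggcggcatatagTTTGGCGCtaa
Tfdp1, chr8:13338501-13338800 (+ strand): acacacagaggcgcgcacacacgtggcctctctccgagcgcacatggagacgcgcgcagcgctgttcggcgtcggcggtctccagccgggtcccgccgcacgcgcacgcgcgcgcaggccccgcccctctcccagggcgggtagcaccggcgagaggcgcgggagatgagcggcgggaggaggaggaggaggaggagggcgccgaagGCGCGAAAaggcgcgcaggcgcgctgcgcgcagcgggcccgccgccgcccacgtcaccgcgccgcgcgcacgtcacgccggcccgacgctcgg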

How the data were processed

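RNA from 7 tumors was sequenced, and the authors deposited 1 table of raw counts per gene (made with HTSeq on NCBIM37, per the labels and the study's methods; the submitters' processing notes also name STAR, BWA and CASAVA 1.7). The labels name a TruSeq RNA kit and the methods stranded total RNA. Counts were tested with edgeR 4.0.16 (TMM scaling, default filterByExpr, quasi-likelihood F test, Benjamini-Hochberg over 17389 genes) in R 4.3.3, 3 controls against 4 WDR11OE-labelled tumors, a call being an adjusted p under 0.05. CPM values were computed from these deposited counts with TMM, and log2 CPM with a prior count of 2. Exact permutation tests were two-sided. Exon length and GC content came from GENCODE M1 on NCBIM37. Alternatives used limma 3.58.1 (voom), DESeq2 1.42.0, other scalings and filters, GC and length corrections and left-out tumors. The members and the gene lists were chosen with earlier results of these data known. Named genes were the members, per list the 3 called genes with the smallest p in each direction and the most abundant gene (any gene for lists of 10 or fewer), and the 3 genes nearest to each called member. Counts per library ran from 32116095 to 87141305, and the script was tested on simulated data. Replicate numbers follow accession order, and pair no samples.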

Additional observations from a re-analysis of the deposited data

Results flagged for a closer look

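Of 219 values per tumor checked in the 4 WDR11OE-labelled tumors, 7 had 1 tumor far from the other 3, and chance alone sets about 1 in 20 groups apart in this way; none of the 10 members' levels was among them. WDR11OE-labelled tumor 4, which also had the lowest human WDR11, was low for Max, at 34.7 CPM against 42.3 to 42.8 CPM in the other 3 (gap over range 0.940). It was low for Cdc25a, at 44.4 CPM against 54.1 to 55.8 CPM in the other 3 (gap over range 0.863), for Chek1, at 35.03 CPM against 40.1 to 40.9 CPM in the other 3 (gap over range 0.865), and for Lig1, at 62.7 CPM against 73.8 to 75.5 CPM in the other 3 (gap over range 0.878). The summed CPM of the 3 genes of E2F turnover was also lowest there, at 170.2, 174, 173 and 150.3 CPM in tumors 1 to 4 (gap over range 0.837). WDR11OE-labelled tumor 1 was high for Cdc25c, at 28.2 CPM against 25.1 to 25.4 CPM in the other 3 (gap over range 0.902). The share of E2f3 in the E2F pool was high in WDR11OE-labelled tumor 3, at 16.9, 16.8, 17.9 and 16.9% in tumors 1 to 4 (gap over range 0.884). Cdc25a, Chek1, Lig1 and Cdc25c lie outside the rule for named genes and are named because of these values.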

How the results depend on the processing

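Of 170 estimates of a member's log2 fold change under an alternative setting, 156 kept their direction and side of the threshold or had no call to lose (uncalled E2f2 and E2f5 changed sign in some), 14 lost the call with the same direction (E2f1, Tfdp2 and, without WDR11OE-labelled tumors 2 and 4, E2f3), and 0 reversed a called value. Members called lower numbered 5 to 7 over the tumors left out singly, 5 at an adjusted p under 0.01 and 4 without WDR11OE-labelled tumors 2 and 4 (fewer samples, chosen after seeing the data), and 0 were called higher in every setting run with edgeR, limma-voom or DESeq2. Calls across all genes were 2011 to 2868 lower and 1560 to 2986 higher over the tumors left out singly; leaving out control 2 gave 2045 higher, WDR11OE-labelled tumor 1 gave 1560 and tumor 2 gave 1657, for which the cause was not tested. They were 1721 lower and 1483 higher without tumors 2 and 4, 1552 lower and 1549 higher at an adjusted p under 0.01, 2093 higher with no filter on low counts, 2046 higher with GC and length trends removed, and 1629 higher with WDR11OE-labelled tumors 1 and 2, whose titles share a number, summed; the cause was not tested where fewer samples or a stricter threshold do not show it. Members without overlap between the groups numbered 7 lower under each scale tried. No paired analysis was possible because the replicate numbers follow accession order and pair nothing. Among list genes, with the GC trend removed Lin9, called higher, turned to -0.0833 and Rnf2, not called, turned to -0.30 and was called, and with GC and length trends removed they were at -0.11 and -0.34. Scaling to library size alone raised the exact permutation p of E2f5 to 0.0857 and of Tfdp2 to 0.0571. For the 4 germline genes too low to test, at 0 to 20 counts per tumor, low depth and absent expression cannot be told apart.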
